A study of Mus musculus with 18 samples.

Results

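Tmem140, 4931406C07Rik, Dhrs3 and Aifm2 are 4 of the 17672 genes in a table of RNA read counts from brown adipocytes. They were chosen by their readout: in earlier results of these data, their response to SR-3420 or to isoproterenol was largest in cells in which the lipase activator ABHD5 had been switched on. All 4 had enough counts to be among the 10178 genes tested. Their responses to either stimulus against the vehicle, and the differences between these responses with and without ABHD5, are therefore given as a description without a test.

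To ask which acute responses of brown adipocytes depend on ABHD5, the study used an immortalised mouse brown adipocyte line, differentiated in culture. Every cell carried a stable shRNA that knocks down Abhd5 together with a doxycycline (Dox)-inducible construct for mCherry-tagged ABHD5 that the shRNA does not target. Cells without Dox were the knockdown state (ABHD5 KD) and cells given 1 µg/ml Dox were the rescued state, which the labels call WT. The labels give 24 to 48 h of Dox, and the study's account of this experiment gives 24 h. In each state, cells received the vehicle DMSO, isoproterenol (ISO) at 10 nM or SR-3420 at 20 µM for 3 h, giving 6 groups of 3 libraries that the methods describe as independent experiments. No group lacked the shRNA or the construct, so all comparisons lie within this modified line, and the effects of Dox itself and of the ABHD5 it switches on cannot be told apart.

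In brown adipocytes, β-adrenergic agonists such as ISO raise cAMP and set off lipolysis, the stepwise release of fatty acids from lipid droplets. The first step is carried out by the lipase ATGL, which needs its activator ABHD5, held back at the droplet by perilipins until the cell is stimulated. SR-3420 is a synthetic ligand that frees ABHD5 from perilipin without raising cAMP. The 4 genes have no common pathway name. Dhrs3 encodes a reductase that turns retinaldehyde back into retinol and so limits retinoic acid. Aifm2, also known as Fsp1, encodes an oxidoreductase that keeps coenzyme Q reduced and protects membrane lipids from the peroxidation that drives ferroptosis. Tmem140 encodes a transmembrane protein found among interferon-stimulated genes. 4931406C07Rik is the mouse gene for the homolog of C11orf54, a little characterised ester hydrolase.

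The libraries held 689910 to 1956565 counts each, and the median library 1145729. The first SR-3420 library with Dox stood apart from the rest: its 10 most abundant genes took 35.6% of its counts, against 16.3% to 26.5% in the others. The fitted values of the 4 genes for SR-3420 with Dox, and the counts of called genes in the pathway lists that change, are also given without it, while ratios of means, levels and correlations include it. Abhd5, the targeted gene, had a mean level of 52.6 ± 4.71 CPM (counts scaled to a library size of 1e+06; SD, n = 3) in DMSO without Dox and 574 ± 86.1 CPM in DMSO with Dox, a log2 fold change of 3.46 ± 0.17 (SE; adjusted p = 2.44e-14, edgeR quasi-likelihood test). No library without Dox reached the level of any library with Dox. Endogenous Abhd5 and the construct are not told apart in these counts. Markers of adipocytes summed to 1920 to 4600 CPM per library over 6 measured genes, and those of preadipocytes and fibroblasts to 509 to 1180 CPM over 8 genes. Those of macrophages summed to 6 to 22.1 CPM over 7 genes and those of endothelial cells to 6.8 to 26.8 CPM over 5 genes. The 8 brown adipocyte markers summed to 92.5 to 468 CPM in the libraries without Dox and to 158 to 1330 CPM in those with Dox, highest with ISO and Dox (595 to 1330 CPM), while one of them, Dio2, had no count in any library. The adipocyte markers were highest in the libraries with Dox and a stimulus, at 4150 to 4220 CPM with ISO and 3560 to 4600 CPM with SR-3420, against 2350 to 2550 CPM in DMSO with Dox, and the part of this shift in the levels below was not tested.

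By the deposited coordinates on mouse build mm9, Tmem140 (NM_197986) lay on the plus strand of chromosome 6 at 34813146 to 34824946. 4931406C07Rik (NM_001199484) lay on the minus strand of chromosome 9 at 15087781 to 15110892. Dhrs3 (NM_001172424) lay on the plus strand of chromosome 4 at 144482730 to 144517548, and Aifm2 (NM_178058) on the plus strand of chromosome 10 at 61178011 to 61202008. The table gives for each gene the number of bases over which reads were counted, which was 5174 for Tmem140, 13230 for 4931406C07Rik, 27462 for Dhrs3 and 20156 for Aifm2. For Tmem140 this equals the length of the first intron in GENCODE vM1, whereas its exons cover 5687 bases of its span. For the other genes the counted length was 57.2% to 84% of the gene span and exceeded the exon bases, which were 2562 for 4931406C07Rik, 2363 for Dhrs3 and 4121 for Aifm2. These lengths are closer to introns than to exons, but the table does not give the positions that were counted, the methods name counting by gene, and the level of Abhd5 was higher with Dox, which acts through an introduced ABHD5 construct. Whether the counts follow unspliced or spliced RNA was therefore not settled here.

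**Figure D1:**
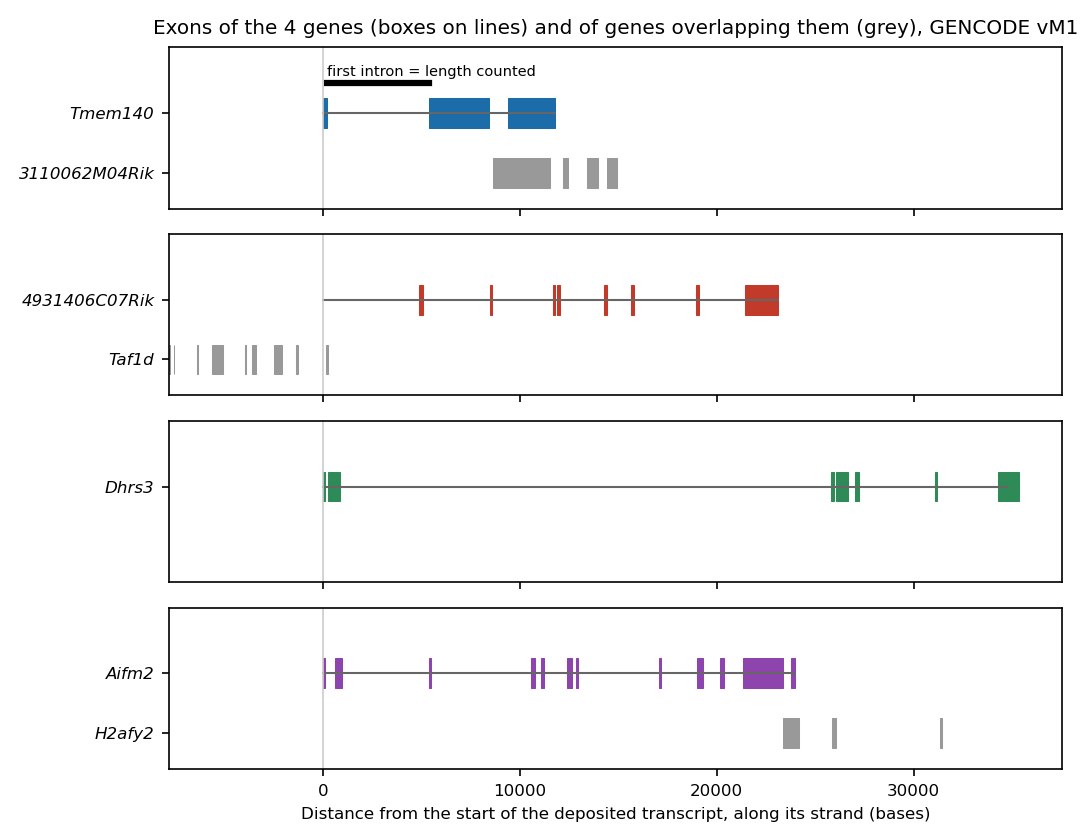
Maps of the 4 genes, each drawn from the start of its deposited transcript along its own strand, with distance in bases on the x axis, exons of GENCODE vM1 as coloured boxes and exons of overlapping genes in grey. The black bar over Tmem140 marks its first intron of 5174 bases, the length over which its reads were counted, which ends before the overlapping gene 3110062M04Rik begins, and the first exon that GENCODE vM1 gives for 4931406C07Rik lies 4892 bases past the deposited start.

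All but Dhrs3 share bases with a neighbour on the opposite strand. Tmem140 overlapped 3110062M04Rik over 3176 bases, 4931406C07Rik overlapped Taf1d over 235 bases and Aifm2 overlapped H2afy2 over 614 bases, while Dhrs3 overlapped no gene of the table. No source states that strand was used in counting, and reads of the overlapping parts cannot be assigned to either gene. The levels of the overlapping genes were low beside those of the 4 genes, with group means of 8.96 to 21.1 CPM for 3110062M04Rik, 3.66 to 7.44 CPM for Taf1d and 3.02 to 12.4 CPM for H2afy2.

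The 250 bases upstream of each deposited start are shown because the genes were chosen for a like response. They were read from the mm9 genome, 5′ to 3′ on the strand of the gene, with matches to the motifs named below in capitals. The windows of Tmem140, 4931406C07Rik and Dhrs3 were identical to the upstream part of the RefSeq promoters of build GRCm38.p6, and the RefSeq promoter listed for Aifm2 belongs to another start.
Tmem140, chr6:34812896-34813145, plus strand: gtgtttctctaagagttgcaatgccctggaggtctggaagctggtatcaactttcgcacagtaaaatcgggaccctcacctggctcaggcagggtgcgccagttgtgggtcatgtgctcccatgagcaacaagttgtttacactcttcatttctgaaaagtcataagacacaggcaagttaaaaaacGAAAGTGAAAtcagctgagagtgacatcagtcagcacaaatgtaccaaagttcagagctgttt
4931406C07Rik, chr9:15110893-15111142, minus strand: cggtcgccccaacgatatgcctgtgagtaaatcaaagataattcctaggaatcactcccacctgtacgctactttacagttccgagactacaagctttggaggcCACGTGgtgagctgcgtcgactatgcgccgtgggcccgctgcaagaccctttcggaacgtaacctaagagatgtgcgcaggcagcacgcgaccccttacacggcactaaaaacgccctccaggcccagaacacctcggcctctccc
Dhrs3, chr4:144482480-144482729, plus strand: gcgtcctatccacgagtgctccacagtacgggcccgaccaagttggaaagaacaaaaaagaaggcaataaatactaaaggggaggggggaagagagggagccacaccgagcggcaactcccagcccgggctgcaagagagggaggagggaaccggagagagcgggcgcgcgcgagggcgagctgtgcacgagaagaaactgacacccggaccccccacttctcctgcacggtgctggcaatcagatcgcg
Aifm2, chr10:61177761-61178010, plus strand: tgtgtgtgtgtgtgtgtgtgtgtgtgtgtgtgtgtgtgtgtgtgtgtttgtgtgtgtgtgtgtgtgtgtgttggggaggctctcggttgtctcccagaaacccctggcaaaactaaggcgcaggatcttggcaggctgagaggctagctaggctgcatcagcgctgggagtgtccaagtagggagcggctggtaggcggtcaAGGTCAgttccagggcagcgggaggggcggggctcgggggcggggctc

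The windows differed in base composition. That of Tmem140 had 46% G and C and 4 CG dinucleotides, below the medians of 60.8% and 17 over the 10176 windows of tested genes. Those of 4931406C07Rik (56.8%, 19 CG), Dhrs3 (61.6%, 19 CG) and Aifm2 (60.8%, 9 CG) lay nearer these medians, and the Aifm2 window opens with a long run of TG repeats. A set of 9 motifs was searched on both strands. The core of the interferon-stimulated response element, TTTC repeated with 2 bases between, was found once, starting 63 bases before Tmem140, and 2.65% of all windows held it. The E-box CACGTG was found once, 146 bases before 4931406C07Rik, and 8.49% of windows held it. The nuclear receptor core site AGGTCA was found once, 48 bases before Aifm2, and 9.65% of windows held it. Not present in these letters in the 4 windows were that core site repeated with 1 base between, as PPARs bind (0.0393% of windows), the cAMP response element TGACGTCA (2.75%), its shorter form TGACG (28%), the antioxidant response element core TGACNNNGC (11.8%), the ATF4 element core TGATGNAAT (0.442%) and CCAAT (35.6%). TGACG also occurs within TGACGTCA and AGGTCA within its repeat. No motif was shared by a pair of the 4 windows, and a match is a description of the letters only.

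Tmem140, the transmembrane protein gene, was highest with Dox and SR-3420. In DMSO it was at 52.5, 55.8 and 45.7 CPM without Dox and at 71.3, 73.9 and 101 CPM with Dox. With ISO it was at 42.1, 55.5 and 57.8 CPM without Dox and at 284, 208 and 234 CPM with Dox. With SR-3420 it was at 94.6, 77.2 and 82.4 CPM without Dox and at 497, 458 and 454 CPM with Dox. The 3 SR-3420 libraries with Dox lay above every other library, and the ISO libraries with Dox above every library of the remaining groups, whereas without Dox the ISO libraries overlapped those in DMSO. In bulk RNA, fewer cells that transcribe a gene and less RNA per cell cannot be told apart. The fitted log2 fold change against DMSO was 2.54 ± 0.15 (SE) for SR-3420 with Dox and 0.73 ± 0.18 without, and for ISO it was 1.58 ± 0.15 with Dox and 0.03 ± 0.19 without.

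4931406C07Rik, the ester hydrolase homolog, had the widest ratio between the states under ISO. In DMSO it was at 62.3, 49 and 63.9 CPM without Dox and at 93.4, 76 and 53.9 CPM with Dox. With ISO it was at 31.3, 44.6 and 37.5 CPM without Dox and at 495, 311 and 331 CPM with Dox. With SR-3420 it was at 108, 106 and 98.9 CPM without Dox and at 620, 535 and 525 CPM with Dox. The ISO libraries without Dox were the lowest of all and did not overlap those in DMSO, while the ISO libraries with Dox were second only to SR-3420 with Dox. The log2 fold change of ISO against DMSO was thus −0.64 ± 0.23 without Dox and 2.30 ± 0.18 with Dox, and that of SR-3420 was 0.82 ± 0.20 and 2.87 ± 0.18.

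Dhrs3, the retinaldehyde reductase gene, had the narrowest range in CPM. In DMSO it was at 73.9, 57.1 and 58.8 CPM without Dox and at 81.4, 65.6 and 74.2 CPM with Dox. With ISO it was at 32.4, 25.8 and 27.8 CPM without Dox and at 139, 133 and 140 CPM with Dox. With SR-3420 it was at 102, 114 and 92.6 CPM without Dox and at 158, 173 and 146 CPM with Dox. The ISO libraries lay below all DMSO libraries without Dox and above all of them with Dox. The log2 fold change of ISO was −1.16 ± 0.18 without Dox and 0.88 ± 0.14 with Dox. SR-3420 gave 0.69 ± 0.15 without Dox and 1.09 ± 0.14 with Dox, so that the Dhrs3 response to SR-3420 differed between the states by 0.40 ± 0.21.

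Aifm2, the coenzyme Q oxidoreductase gene, was the most abundant of the 4 in CPM and the one with a higher level under ISO in both states. In DMSO it was at 115, 154 and 132 CPM without Dox and at 188, 200 and 184 CPM with Dox. With ISO it was at 220, 226 and 261 CPM without Dox and at 797, 656 and 732 CPM with Dox. With SR-3420 it was at 233, 239 and 211 CPM without Dox and at 609, 618 and 542 CPM with Dox. Its highest group was ISO with Dox, unlike the other 3 genes, and without Dox the ISO and SR-3420 libraries overlapped each other above DMSO. The log2 fold change of ISO was 0.84 ± 0.14 without Dox and 1.93 ± 0.13 with Dox, and that of SR-3420 was 0.78 ± 0.14 and 1.63 ± 0.13.

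**Figure D2:**
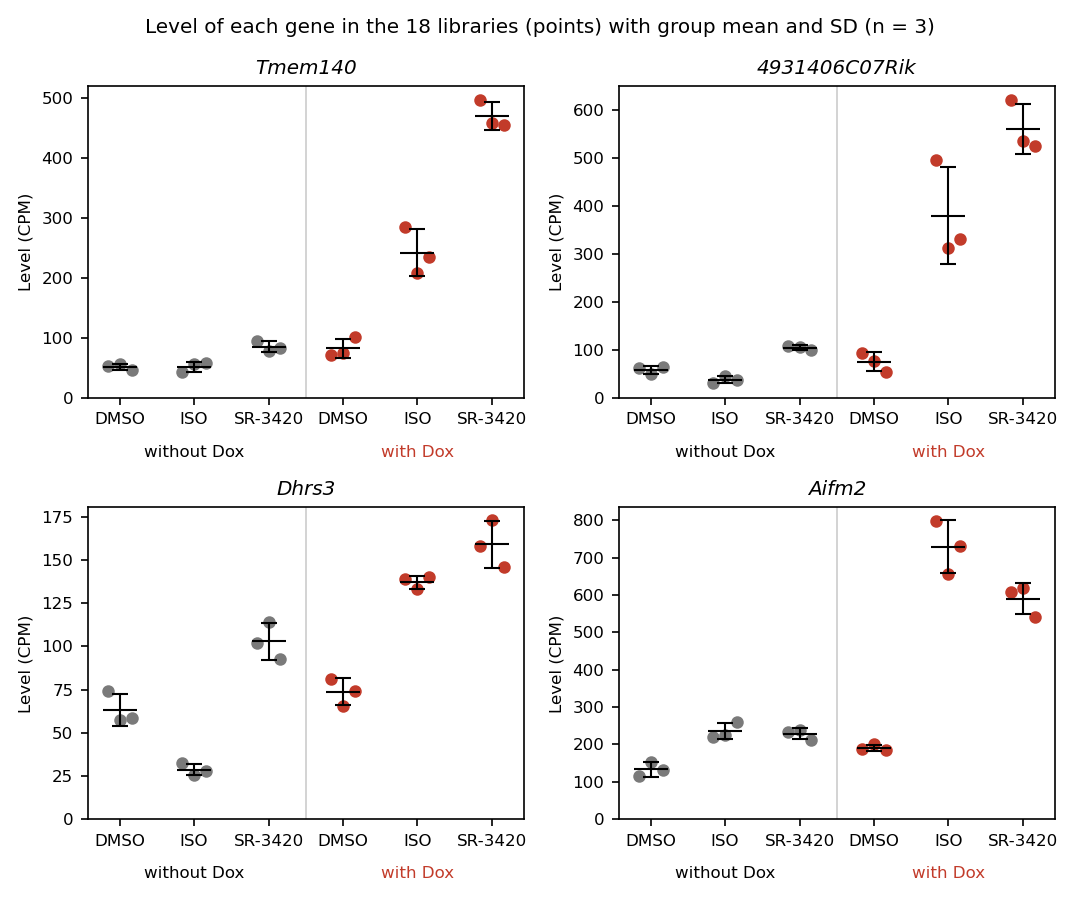
Level in CPM (y axis, from 0) of each gene in every library (points) by stimulus (x axis), grey without Dox and red with Dox, with the group mean and SD (n = 3) as black bars. With Dox the ISO and SR-3420 libraries lie above all others for each gene, and Dhrs3 and 4931406C07Rik have their lowest level, with means of 28.7 and 37.8 CPM, in ISO without Dox.

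All 4 were higher with SR-3420 than with DMSO in the knockdown state too, where the 3 SR-3420 libraries lay above the 3 DMSO libraries for each gene and the log2 fold changes ran from 0.69 to 0.82. Abhd5 was still measured there, at 47.2 to 55.8 CPM in DMSO, 70.9 to 78.5 CPM with SR-3420 and 130 to 173 CPM with ISO. With ISO it was higher than in DMSO by 1.5 ± 0.18 (log2, adjusted p = 3.34e-07, edgeR). The adipocyte markers summed to 1920 to 2180 CPM in DMSO and 2920 to 3120 CPM with SR-3420. The part of Abhd5 or of the markers in the values of the 4 genes was not tested. The SR-3420 values of the 4 genes without Dox put them at ranks 192 to 297 from the top among the 10178 genes tested. In this contrast 0.236% of genes were called higher, a call meaning an adjusted p no higher than 0.05 with a change of 1 or more on the log2 scale. With Dox, SR-3420 placed 4931406C07Rik at rank 6, Tmem140 at rank 16, Aifm2 at rank 64 and Dhrs3 at rank 212, where 2.1% of genes were called higher. Without the first SR-3420 library with Dox, the log2 fold changes of SR-3420 with Dox were 2.79 for 4931406C07Rik, 2.5 for Tmem140, 1.61 for Aifm2 and 1.1 for Dhrs3. ISO with Dox placed them at ranks 83 (4931406C07Rik), 142 (Aifm2), 241 (Tmem140) and 857 (Dhrs3), with 6.22% of genes called higher. Without Dox, where 5.81% were called higher, the ISO ranks ran from 917 for Aifm2 through 4751 for Tmem140 and 8640 for 4931406C07Rik to 9747 for Dhrs3. Since these contrasts served to choose the genes, nothing is read from the ranks.

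The difference between the ISO responses with and without Dox was 2.94 ± 0.29 (log2, SE) for 4931406C07Rik, 2.04 ± 0.23 for Dhrs3, 1.55 ± 0.25 for Tmem140 and 1.1 ± 0.19 for Aifm2, which were ranks 2, 19, 71 and 239, and 0.894% of genes were called higher in this difference. For SR-3420 the difference was 2.05 ± 0.27 for 4931406C07Rik, 1.81 ± 0.23 for Tmem140, 0.85 ± 0.19 for Aifm2 and 0.40 ± 0.21 for Dhrs3, which were ranks 18, 33, 392 and 1727, with 0.452% of genes called higher. Without the first SR-3420 library with Dox these differences were 1.97, 1.77, 0.83 and 0.41. The order of the genes therefore differed by stimulus, with Dhrs3 second for ISO and last for SR-3420. As a ratio of group means, the level with Dox over that without was 1.16 to 1.6 in DMSO, 3.09 to 10 with ISO and 1.55 to 5.54 with SR-3420. For Dhrs3 these ratios were 1.16, 4.79 and 1.55, and for 4931406C07Rik 1.27, 10 and 5.37. For Tmem140 they were 1.6, 4.67 and 5.54, and for Aifm2 1.43, 3.09 and 2.59.

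The 3 contrasts that were not themselves the ground of the choice were tested with the edgeR quasi-likelihood fit over all 10178 genes, with p-values adjusted by Benjamini-Hochberg over all of them. The comparisons of SR-3420 with ISO are, gene by gene, the difference of the 2 responses to DMSO that entered the choice, and the Dox contrast shares its DMSO libraries with them, so that the p-values for the 4 genes are not evidence independent of the choice. Each test was two-sided. The first was Dox against no Dox in DMSO, the comparison of the states without a stimulus. The log2 fold change was 0.66 ± 0.18 for Tmem140 (adjusted p = 0.0738), 0.52 ± 0.14 for Aifm2 (adjusted p = 0.0673), 0.38 ± 0.21 for 4931406C07Rik (adjusted p = 0.575) and 0.22 ± 0.16 for Dhrs3 (adjusted p = 0.676). Over all genes 0.874% were called higher in this contrast. None of the 4 passed in the main edgeR fit, which has no replicate block. The unadjusted p was 0.00103 for Tmem140 and 0.000886 for Aifm2, and the libraries of both genes did not overlap between the states. Aifm2 passed the adjusted p with DESeq2 (0.0377) and with limma-voom (0.0477) at log2 fold changes of 0.52 and 0.54, and without the second DMSO library lacking Dox (0.0311 at 0.63). Tmem140 passed it without a filter on low counts (0.0373 at 0.67) and without the first DMSO library with Dox (0.0459 at 0.77). With the replicate number as a block both passed, Tmem140 at 0.65 (adjusted p = 0.0226) and Aifm2 at 0.53 (adjusted p = 0.0105). Over the 27 alternatives run, the adjusted p ranged from 0.0226 to 0.414 for Tmem140, from 0.0105 to 0.462 for Aifm2, from 0.32 to 0.866 for 4931406C07Rik and from 0.542 to 0.907 for Dhrs3.

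Dox moved many interferon-stimulated genes in the same libraries. Of 32 tested genes of an interferon list, 29 were called higher with Dox in DMSO, with a median log2 fold change of 2.77 against 0 over all genes. The examples with the smallest p were Trim25 (2.20 ± 0.21, adjusted p = 1.01e-07), a ubiquitin ligase of RNA sensing, Dhx58 (3.44 ± 0.34, adjusted p = 1.01e-07), an RNA sensor of the RIG-I family, Rtp4 (4.18 ± 0.44, adjusted p = 3.16e-07) and Bst2 (3.12 ± 0.33, adjusted p = 4.40e-07), which tethers budding virus particles. Summed over 36 genes of the list, the level ran from 549 to 1110 CPM in the libraries without Dox and from 2290 to 4840 CPM in those with Dox. Within each state it went with the replicate number, which the main fit leaves out. With Dox the first libraries of DMSO, ISO and SR-3420 were at 2450, 2350 and 2290 CPM and the others at 3980 to 4840 CPM. Without Dox the second library was the highest under each treatment. The part of the difference between the states in the basal value of Tmem140, whose window held the response element core, was not tested. By stimulus the list had a median log2 fold change of 0.02 for SR-3420 and −0.12 for ISO against DMSO with Dox. In the first of these edgeR called no gene of the list, where 2.1% of all genes were called higher and 1% lower, and 4 of 32 were at an unadjusted p under 0.05, against 2333 of all 10178 genes. ISO against DMSO called Oasl1 higher with Dox (1.09 ± 0.33, adjusted p = 0.0132) and Trim25 without (1.53 ± 0.22, adjusted p = 5.55e-06), where 6.22% and 5.81% of all genes were called higher.

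The second test compared SR-3420 with ISO in cells with Dox. Tmem140 was higher with SR-3420 by 0.96 ± 0.14 on the log2 scale (adjusted p = 7.68e-06) and 4931406C07Rik by 0.56 ± 0.16 (adjusted p = 0.0107). Both passed the adjusted p but not the limit on the fold change, which Tmem140 reached with upper-quartile factors (1) and without the first ISO library with Dox (1.09), and 9.43% of genes were higher by the adjusted p alone. Tmem140 was at 0.9 (adjusted p = 0.000131) without the first SR-3420 library with Dox, and over all 27 alternatives its adjusted p was at most 0.000281. For 4931406C07Rik the difference no longer passed without that library (0.46, adjusted p = 0.0691), without the second ISO library with Dox (0.41, adjusted p = 0.085) or without the third (0.46, adjusted p = 0.0827), and with library totals in place of scaling factors the adjusted p was 0.0504, within a range of 7.56e-05 to 0.085 over its alternatives. Dhrs3 did not pass, at 0.21 ± 0.13 (adjusted p = 0.275), nor did Aifm2, at −0.30 ± 0.12 (adjusted p = 0.0845), whose value has the opposite sign. Aifm2 passed without the second ISO library with Dox (−0.4, adjusted p = 0.0407, within a range of 0.0235 to 0.261) and with a replicate block (−0.3, adjusted p = 0.0235). Under the full rule 3.36% of genes were called higher and 3.49% lower with SR-3420.

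The third test made the same comparison without Dox, where the genes parted more widely. Dhrs3 was called higher with SR-3420 than with ISO, by 1.85 ± 0.16 (log2, adjusted p = 9.31e-10), and so was 4931406C07Rik, by 1.46 ± 0.21 (adjusted p = 3.08e-06). Tmem140 was higher by 0.70 ± 0.17 (adjusted p = 0.00266), which passed the adjusted p but not the fold limit. Aifm2 was at −0.05 ± 0.13 (adjusted p = 0.796). In this contrast 5.65% of genes were called higher and 4.95% lower, and 14.1% were higher by the adjusted p alone. The calls of Dhrs3 and 4931406C07Rik held in all 27 alternatives run, with log2 fold changes of 1.77 to 1.97 and 1.35 to 1.58. In the knockdown state the genes thus divided into Dhrs3 and 4931406C07Rik, low with ISO and higher with SR-3420, Tmem140, whose ISO and DMSO libraries overlapped and whose SR-3420 libraries were higher, and Aifm2, whose ISO and SR-3420 libraries overlapped.

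**Figure D3:**
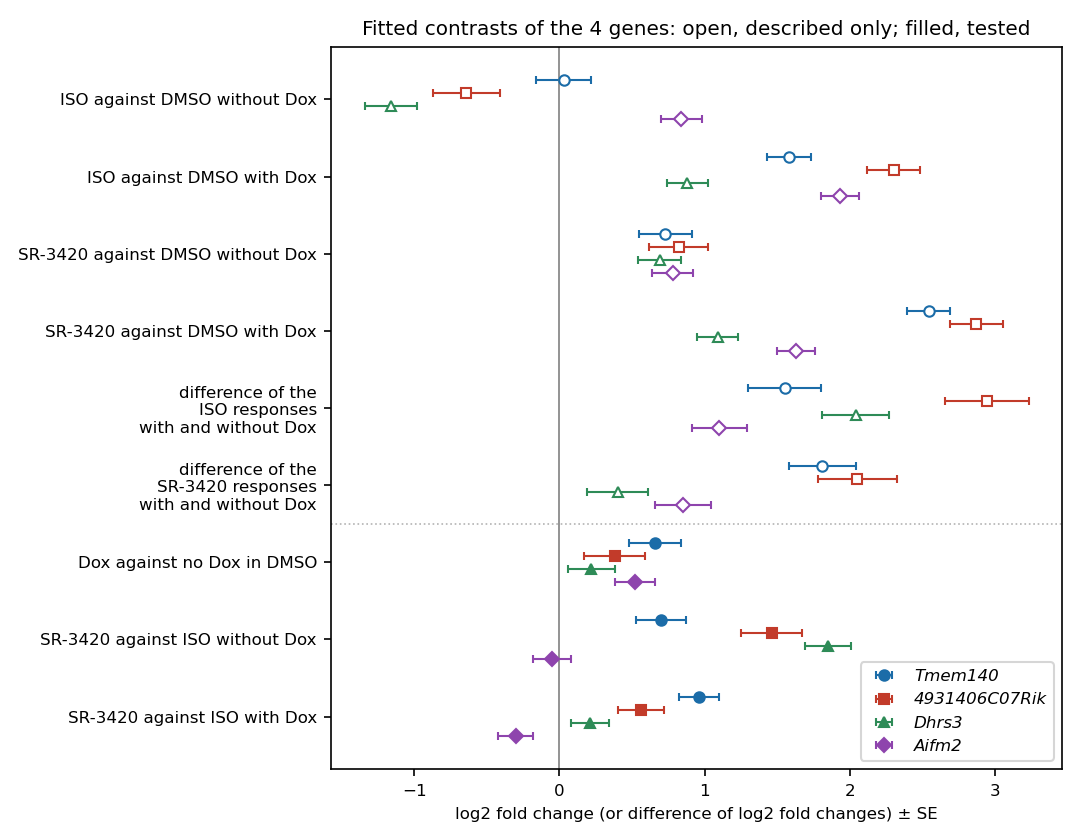
Fitted log2 fold change, or difference of log2 fold changes, with its SE (x axis) for each gene in the 9 contrasts (y axis), with open symbols for the contrasts that served to choose the genes and filled symbols for those tested. The genes lie together at 0.69 to 0.82 for SR-3420 without Dox but spread from −1.16 to 0.84 for ISO without Dox.

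On a per-length scale, Tmem140 had the highest mean of the genes in every group but ISO without Dox, where it was at 10 ± 1.63 CPM per kb and Aifm2 at 11.7 ± 1.1. With SR-3420 and Dox its mean level was 90.8 ± 4.5 CPM per kb of counted sequence (SD, n = 3), against 42.3 ± 3.92 for 4931406C07Rik, 29.3 ± 2.06 for Aifm2 and 5.79 ± 0.496 for Dhrs3. In DMSO without Dox the levels were 9.92 ± 0.998 CPM per kb for Tmem140, 6.62 ± 0.968 for Aifm2, 4.41 ± 0.62 for 4931406C07Rik and 2.3 ± 0.335 for Dhrs3. These basal levels placed the genes at percentiles 85.7, 77.9, 68.7 and 52.2 of the tested genes on the same scale. For scale, Abhd5 was at 2.19 ± 0.196 CPM per kb in DMSO without Dox and 23.9 ± 3.58 with Dox.

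Over the 6 groups, the order of levels was SR-3420 with Dox, ISO with Dox, SR-3420 without Dox and DMSO with Dox for Tmem140, 4931406C07Rik and Dhrs3, with the lowest places held by DMSO and ISO without Dox. For Aifm2 it was ISO with Dox, SR-3420 with Dox, ISO without Dox, SR-3420 without Dox, DMSO with Dox and DMSO without Dox. Neighbours in these orders whose libraries overlapped were SR-3420 without Dox and DMSO with Dox for Tmem140, ISO and DMSO without Dox for Tmem140, DMSO with and without Dox for 4931406C07Rik and for Dhrs3, and ISO and SR-3420 without Dox for Aifm2. The other neighbours did not overlap, though some gaps were narrow: the lowest DMSO library without Dox was at 49 CPM and the highest ISO library at 44.6 CPM for 4931406C07Rik, and for Dhrs3 the lowest SR-3420 library with Dox was at 146 CPM and the highest ISO library at 140 CPM.

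Across the 18 libraries, log2 CPM of Tmem140 and 4931406C07Rik correlated at r = 0.934, and of Dhrs3 and Aifm2 at r = 0.537, the highest and the lowest of the 6 pairs. The libraries share their groups, so these values mostly describe group means, and with group means removed the same pairs were at 0.619 and −0.433. The genes most alike to Tmem140 over the 18 libraries were Irf2bp2 (r = 0.946), a transcriptional corepressor, 4931406C07Rik itself, and Dhrs9 (r = 0.919), a retinol dehydrogenase relative of Dhrs3. Those most alike to 4931406C07Rik were Dhrs9 (r = 0.943), Irf2bp2 (r = 0.941) and Tmem140. Dhrs3 was most like Tmem120b (r = 0.924), a nuclear envelope protein of adipocyte differentiation, Adig (r = 0.921), the adipocyte protein adipogenin, and Coq3 (r = 0.917), a methyltransferase of coenzyme Q synthesis. Aifm2 was most like Spg21 (r = 0.942), which encodes maspardin, Piezo1 (r = 0.941), a mechanically gated ion channel, and Sh3pxd2a (r = 0.928), a podosome scaffold.

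The levels of these genes show what each pattern is. Dhrs9 had group means of 71.9 ± 7.54, 55.2 ± 7.7 and 93.9 ± 5.48 CPM in DMSO, ISO and SR-3420 without Dox, and of 88 ± 18.3, 211 ± 27.8 and 308 ± 44.2 CPM with Dox. Irf2bp2 was at 14 ± 3.52, 14.4 ± 0.427 and 15.8 ± 1.4 CPM without Dox and at 19 ± 3.43, 53.2 ± 7.18 and 56.1 ± 10.1 CPM with Dox. Irf2bp2 thus differed from Tmem140 in the knockdown state, where its log2 fold change with SR-3420 was 0.15 ± 0.27 and that of Tmem140 was 0.73, a difference between genes that was not tested. Coq3 was at 39.7 ± 4.66, 30.3 ± 1.36 and 57.9 ± 3.17 CPM without Dox and at 43.3 ± 4.14, 67.6 ± 15.9 and 85.6 ± 14.8 CPM with Dox, the order seen for Dhrs3. Piezo1 was at 59.4 ± 6.1, 88.2 ± 12.3 and 113 ± 5.48 CPM without Dox and at 77.4 ± 2.16, 179 ± 19.4 and 168 ± 16.2 CPM with Dox, with both stimuli above DMSO in both states as for Aifm2.

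**Figure D4:**
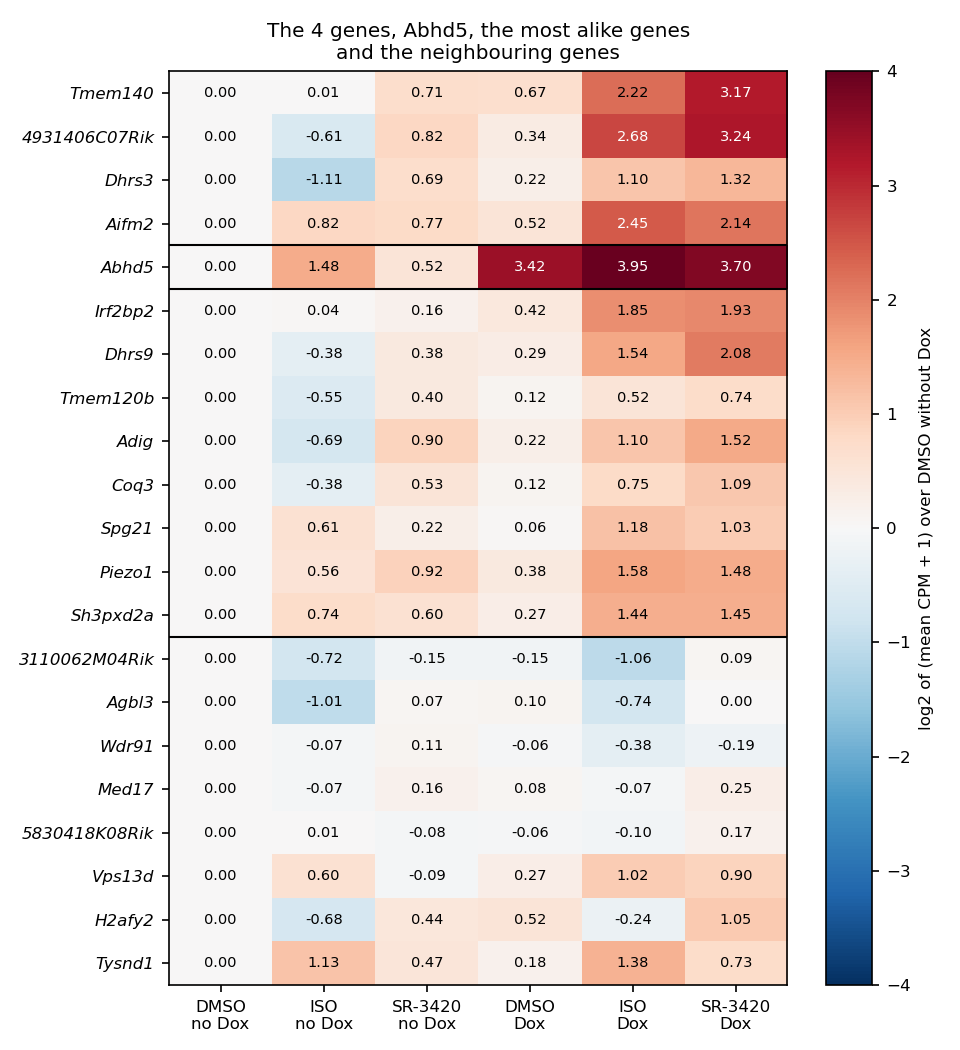
Group means of the 4 genes, Abhd5, the 8 other genes most alike to them and the tested genes that neighbour or overlap them (rows) in the 6 groups (columns), as log2 of mean CPM plus 1 over that in DMSO without Dox, with red for higher and blue for lower. With SR-3420 and Dox the 4 genes are at 1.32 to 3.24, the genes alike to them at 0.74 to 2.08 and the neighbours at −0.19 to 1.05, and among the neighbours Vps13d and Tysnd1 are red under both stimuli with Dox, at up to 1.38.

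The genes next to the 4 on the chromosome were described in the same contrasts. Beside Tmem140, Wdr91 was at −0.13 ± 0.14 (log2, SE) for SR-3420 against DMSO with Dox (adjusted p = 0.631), Agbl3 at −0.12 ± 0.19 (adjusted p = 0.767) and the overlapping 3110062M04Rik at 0.23 ± 0.32 (adjusted p = 0.728), while Tmem140 was at 2.54. For ISO with Dox, 3110062M04Rik was called lower, at −1.03 ± 0.37 (adjusted p = 0.0304), where 6.89% of all genes were, and Tmem140 was at 1.58. Agbl3 was lower with ISO in both states, at −0.86 ± 0.20 with Dox (adjusted p = 0.00115) and −1 ± 0.21 without (adjusted p = 0.000764), but was not called. Beside 4931406C07Rik, Med17, a subunit of the Mediator complex, was at 0.16 ± 0.15 (adjusted p = 0.591) and 5830418K08Rik at 0.23 ± 0.21 (adjusted p = 0.563). Vps13d, a lipid transfer protein gene next to Dhrs3, was at 0.69 ± 0.20 (adjusted p = 0.0238), and for ISO with Dox it was at 0.80 ± 0.20 (adjusted p = 0.00231), where Dhrs3 was at 0.88. Tysnd1, a peroxisomal protease gene next to Aifm2, was called higher with ISO in both states, by 1.12 ± 0.16 without Dox (adjusted p = 3.66e-06) and 1.19 ± 0.15 with Dox (adjusted p = 3.93e-07), and was at 0.53 ± 0.15 for SR-3420 with Dox (adjusted p = 0.0236). Its difference between the states was 0.06 ± 0.22 (adjusted p = 0.942), where that of Aifm2 was 1.1. H2afy2, which overlaps Aifm2, was at 0.53 ± 0.42 for SR-3420 with Dox (adjusted p = 0.5) and −0.89 ± 0.49 for ISO with Dox (adjusted p = 0.172).

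Of the retinoid genes around Dhrs3, 20 of a list of 37 were tested besides Dhrs3 itself. SR-3420 with Dox raised 2 of them and lowered 1, where 2.1% of all genes were called higher and 1% lower, with a median log2 fold change of −0.07 over the list against −0.01 over all genes. The higher ones were Dhrs9 (1.77 ± 0.15, adjusted p = 4.36e-09) and Rxrg (1.88 ± 0.49, adjusted p = 0.0112), a retinoid X receptor. The lower one was Dhrs7 (−1.20 ± 0.33, adjusted p = 0.0169), a further short-chain dehydrogenase. Without the first SR-3420 library with Dox 2 of 21 tested were called higher and 0 lower. ISO with Dox raised 4 and lowered 2, where 6.22% of all genes were called higher and 6.89% lower. Rbp4, the retinol carrier, was higher by 1.5 ± 0.16 (adjusted p = 1.5e-08), Dhrs9 by 1.22 ± 0.15 (adjusted p = 3.80e-07) and the retinol dehydrogenase Rdh13 by 1.15 ± 0.20 (adjusted p = 4.33e-05), while Rdh5 was lower, at −1.5 ± 0.27 (adjusted p = 7.12e-05), and at −0.89 ± 0.27 without Dox (adjusted p = 0.0129). Without Dox ISO raised 3 and lowered 1, where 5.81% of all genes were called higher and 5.08% lower. Cyp26b1, which degrades retinoic acid, was called higher with ISO in both states, at 24.7 ± 16.4 CPM against 1.01 ± 1.76 CPM in DMSO without Dox (adjusted p = 2.6e-05) and at 15.4 ± 4.92 against 2.62 ± 0.67 CPM with Dox (adjusted p = 0.00113). Rbp4 and Rdh13 were thus raised by ISO in both states, at 1.09 ± 0.16 and 1.41 ± 0.21 without Dox, in contrast to the value of Dhrs3, which was below DMSO there. Dhrs9 was the one gene of the list called in the difference of the ISO responses (1.61 ± 0.24, adjusted p = 0.00017) and in that of the SR-3420 responses (1.39 ± 0.23, adjusted p = 0.00178), where 0.894% and 0.452% of all genes were called higher.

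Of the ferroptosis defence and coenzyme Q genes around Aifm2, 37 of a list of 42 were tested besides Aifm2. SR-3420 with Dox raised 1 of them, where 2.1% of all genes were called higher. This was Slc3a2 (1.59 ± 0.15, adjusted p = 1.60e-08), the heavy chain that pairs with the cystine transporter Slc7a11. Without the first SR-3420 library with Dox 3 of 37 were called higher. By the adjusted p alone 7 were higher in all libraries, but the share of all genes under that rule is not given here, so nothing is read from this count. ISO raised 8 and lowered 2 with Dox, where 6.22% of all genes were called higher and 6.89% lower, and raised 6 and lowered 2 without, where 5.81% and 5.08% were. Acsl4, which loads polyunsaturated fatty acids into membrane lipids and so favours ferroptosis, was raised by ISO in both states, by 2.82 ± 0.20 with Dox (adjusted p = 5.44e-12) and 3.04 ± 0.20 without (adjusted p = 2.14e-12). Coq5, a methyltransferase of coenzyme Q synthesis, was higher with ISO by 1.33 ± 0.14 with Dox (adjusted p = 1.17e-08) and 0.74 ± 0.14 without (adjusted p = 0.000305), and Pdss1, which makes the coenzyme Q side chain, by 1.37 ± 0.18 with Dox (adjusted p = 6.32e-07) and 1.39 ± 0.18 without (adjusted p = 1.05e-06). The exporter of iron Slc40a1 was lowered by ISO in both states, at −2.23 ± 0.45 with Dox (adjusted p = 0.000334) and −3.12 ± 0.46 without (adjusted p = 6.64e-06). In the difference of the SR-3420 responses Slc3a2 alone was called (1.58 ± 0.22, adjusted p = 0.000155), where 0.452% of all genes were called higher, and in that of the ISO responses Coq3 was called higher (1.04 ± 0.28, adjusted p = 0.0425), where 0.894% were.

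Lipid droplet genes and PPAR targets were counted in the same way. Both lists hold Plin2, Plin4, Plin5 and Hilpda, so their counts are not separate. Of 25 tested lipid droplet genes, SR-3420 raised 8 with Dox (7 of 25 without its first library) and 2 without. ISO raised 7 of them with Dox and 6 without, the latter including Abhd5, the targeted gene. Of the same genes ISO lowered 2 without Dox, one of them Vps13c, a lipid transfer protein gene, at −1.14 ± 0.24 (adjusted p = 0.000743) and −0.75 ± 0.23 with Dox (adjusted p = 0.0109), and in the other contrasts with DMSO none was called lower. Over all genes, the shares called higher in these contrasts were 2.1%, 0.236%, 6.22% and 5.81%, and they hold for the counts of PPAR targets too. Plin2, a coat protein of lipid droplets, was raised by SR-3420 with Dox by 2.05 ± 0.24 (adjusted p = 6.61e-07), and Mgll, which cleaves monoglycerides, by 1.36 ± 0.17 with Dox (adjusted p = 1.97e-06) and 1.17 ± 0.17 without (adjusted p = 0.000254). Of 28 tested PPAR targets, SR-3420 raised 12 with Dox (11 of 29 tested without its first library) and 3 without, and ISO raised 13 with Dox and 7 without. ISO lowered 1 PPAR target with Dox and 2 without, where 6.89% and 5.08% of all genes were called lower, and SR-3420 lowered 0 in either state. Their median log2 fold change with SR-3420 was 0.93 with Dox and 0.67 without, against −0.01 and 0 over all genes. Pdk4, which restrains glucose oxidation, was the one PPAR target called in the difference of the SR-3420 responses (1.98 ± 0.36, adjusted p = 0.00639), where 0.452% of all genes were called higher. In the difference of the ISO responses, where 0.894% of all genes were called higher, 5 PPAR targets were called higher, led by Acaa1b, a peroxisomal thiolase (2.4 ± 0.32, adjusted p = 6.13e-05), and so were 3 lipid droplet genes. As for the 4 genes, SR-3420 thus gave values above DMSO without Dox for several of these targets. All of these comparisons share the DMSO libraries of their state.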

How the data were processed

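The study sequenced total RNA from 18 cultures (TruSeq). By its methods, the authors mapped reads to mm9 with STAR 2.4.2a, kept 1 read per position and length with HOMER, and summarised reads by gene with iRNA-seq. The deposited values are raw counts, whole numbers for each gene in each library, with no scaling and no pooling of replicates. Columns were matched to samples by title, and 1 header that differs from its title in a hyphen was given to the only sample of that name without Dox. The filter filterByExpr left 10178 genes tested and 7494 not tested. TMM factors ran from 0.768 to 1.13. The model was edgeR 4.0.16 (R 4.3.3), its quasi-likelihood fit and test, on all 18 libraries with a mean for each of the 6 groups. Tests were two-sided, with Benjamini-Hochberg adjustment across the tested genes. CPM use the TMM-scaled totals, and SE derive from the F statistic. The fit was tested on simulated data. Precision is limited by the totals and by 3 libraries per group. Alternatives were RLE, upper-quartile and no scaling factors, other count filters, DESeq2 1.42.0, limma-voom (limma 3.58.1), a replicate block, only the groups compared, no fold limit and leaving out each library. Counts over the pathway lists without the first SR-3420 library with Dox were added after seeing the data.

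The members and gene lists were chosen with earlier results of these data known. Named genes were the 4 members, Abhd5, overlapping and adjacent genes, the 3 tested genes with the highest Pearson r to each member over log2 CPM, and up to 4 called genes with the smallest p per list and contrast. Some called genes of the lists are not reported here. Cell type marker lists covered adipocytes, brown adipocytes, preadipocytes and fibroblasts, macrophages and endothelial cells, of which the preadipocyte and fibroblast list summed to 509 to 1180 CPM per library. Replicate numbers were checked for pairing over 45 pairs of libraries with the same number, whose deviations from group means correlated at −0.0914 to 0.658. Numbers were to be taken as pairs if a label tied them to a shared batch or every pair was over 0.1. No label does and 9 pairs were, so the block stayed an alternative, given beside the results it changes. Upstream windows were read from the mm9 genome and exons from GENCODE vM1.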

Additional observations from a re-analysis of the deposited data

Results flagged for a closer look

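The responses of 4931406C07Rik and Dhrs3 to ISO had opposite signs in the 2 states, and the difference was not tested because the genes were chosen by these responses. For 4931406C07Rik, the log2 fold change of ISO against DMSO was −0.64 without Dox, where all 3 ISO libraries lay below all 3 DMSO libraries, and 2.3 with Dox, where all 3 lay above. For Dhrs3 it was −1.16 without Dox and 0.88 with Dox, with the same separation of the libraries.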

How the results depend on the processing

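Of 972 values of the 4 genes recomputed under 27 alternatives, 950 kept their direction and their side of the threshold or moved by less than the spread between replicates. With upper-quartile factors, ISO with Dox gave 0.76 for Dhrs3 and 1.82 for Aifm2 (log2). With library totals only, Dhrs3 was at 0.91 for SR-3420 and 0.74 for ISO with Dox, Aifm2 was at 1.45 for SR-3420 with Dox, 1.8 for ISO with Dox, 0.66 for ISO without Dox and 0.07 for SR-3420 against ISO without Dox, the last with a changed sign, and 4931406C07Rik was at 0.5 for SR-3420 against ISO with Dox (adjusted p = 0.0504). For Dox in DMSO, Tmem140 was at 0.67 without a count filter (adjusted p = 0.0373), and Aifm2 at 0.52 with DESeq2 and 0.54 with limma-voom. Leaving out 1 library, the value ranged from 0.5 to 0.77 for Tmem140 and from 0.42 to 0.63 for Aifm2 (Dox in DMSO), from 0.41 to 0.8 for 4931406C07Rik and from −0.4 to −0.23 for Aifm2 (SR-3420 against ISO with Dox), and from −0.1 to 0.02 for Aifm2 (the same without Dox, positive without the third ISO library). The cause was not tested.

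With the replicate number as a block, Tmem140 was at 0.65 (adjusted p = 0.0226) and Aifm2 at 0.53 (adjusted p = 0.0105) for Dox in DMSO, and Aifm2 at −0.3 (adjusted p = 0.0235) for SR-3420 against ISO with Dox, and no other tested value of the 4 genes crossed an adjusted p of 0.05. The numbers share no stated origin, and 9 of 45 same-number pairs correlated above 0.1. For 18 of 18 libraries, the mean correlation with libraries of other groups was highest for those of their own number, a hint from the data only. The block moved the genes called higher in the difference of the SR-3420 responses from 46 to 83 and those called lower in that of the ISO responses from 42 to 92. Requiring 10 counts in every library lowered the counts of genes called higher from 342 to 145 (SR-3420 against ISO with Dox), from 575 to 265 (without Dox), from 633 to 395 (ISO with Dox), from 591 to 345 (ISO without Dox) and from 89 to 36 (Dox in DMSO). Library totals lowered those for SR-3420 with Dox from 214 to 125. Over all alternatives with the fold limit, genes called higher numbered 14 to 38 for SR-3420 without Dox (24 as reported), 16 to 83 for the difference of the SR-3420 responses (46) and 62 to 145 for that of the ISO responses (91). Genes called lower numbered 45 to 230 for SR-3420 with Dox (102), 299 to 975 for ISO with Dox (701), 236 to 833 for ISO without Dox (517), 201 to 409 for SR-3420 against ISO with Dox (355) and 287 to 571 without (504). Without the fold limit, 18 PPAR targets were higher with SR-3420 and Dox and 21 with ISO and Dox, against 12 and 13, as were 7 ferroptosis genes with SR-3420 and Dox against 1, 10 with ISO without Dox against 6, and 13 lipid droplet genes with ISO and Dox against 7. The shares of all genes without the fold limit in these contrasts are not given here, so these counts show only how the rule changes them.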
